A study of Mus musculus with 11 samples.

Results

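The 37 genes described here encode the enzymes that make sterols and fatty acids, the factors that control them, and the proteins that export cholesterol. They were named by a list, not by a threshold on their levels, and the list was chosen with earlier results of these data known. Each was read from its brightest probe set, by the mean over the arrays. Of the 37, 34 were measured among 22180 genes, while Idi1, Scd2 and Nr1h2 had no probe set paired with that gene alone. The cells were hematopoietic stem cells (HSCs) of the mouse, from which all blood lineages arise, sorted by flow cytometry and read on 11 Affymetrix arrays. There were 3 RApIC arrays from mice given ATRA followed by polyIC, 2 pIC arrays from mice given polyIC, 3 ATRA arrays from mice given ATRA, and 3 PBS arrays from mice injected with PBS alone. ATRA is all-trans retinoic acid, the active form of vitamin A. PolyIC is a synthetic double-stranded RNA that imitates a viral infection and induces interferon. Strain, age, genotype, dose, injection times and the sorting gate are not stated in the labels. Nor do they say whether replicates came from separate mice, so p-values reflect the spread between samples that may be technical repeats.

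Cholesterol is built from acetyl-CoA through mevalonate, farnesyl diphosphate and squalene, and then through a chain of sterol intermediates. Transcription of these enzymes is driven by SREBP factors, which are held in the endoplasmic reticulum with SCAP by INSIG proteins when sterols are plentiful. When sterols run short, SCAP carries SREBP to the Golgi, where proteases release the active factor. LXR receptors respond to oxysterols and switch on the cholesterol exporters ABCA1 and ABCG1. In macrophages, interferon is known to lower sterol synthesis and to induce Ch25h, the enzyme that makes an antiviral oxysterol.

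Promoter sequence is shown for the 3 members that fell in more than 1 comparison (Insig1, Sc5d and Srebf2) and for 2 members that rose (Ebp and Fasn), so that the genes can be compared by sequence as well as by level. Each is the 250 bases before the gene's annotated start, from RefSeq on GRCm38.p6, written 5′ to 3′ on the gene's own strand. The windows are chr5:28071162-28071411 (plus strand) for Insig1, chr9:42264301-42264550 (minus strand) for Sc5d, chr15:82147019-82147268 (plus strand) for Srebf2, chrX:8193513-8193762 (minus strand) for Ebp and chr11:120824548-120824797 (minus strand) for Fasn. Capitals mark matches on either strand to CCAAT (the NF-Y motif), CACGTG (an E-box) or GAAANNGAA (the core of interferon regulatory factor sites), so CCAAT on the opposite strand reads ATTGG.
Insig1: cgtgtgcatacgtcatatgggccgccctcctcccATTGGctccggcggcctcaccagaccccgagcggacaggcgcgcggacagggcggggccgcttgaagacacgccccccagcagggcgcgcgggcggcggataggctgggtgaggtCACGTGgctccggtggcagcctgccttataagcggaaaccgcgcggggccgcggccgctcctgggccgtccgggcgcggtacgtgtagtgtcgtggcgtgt
Sc5d: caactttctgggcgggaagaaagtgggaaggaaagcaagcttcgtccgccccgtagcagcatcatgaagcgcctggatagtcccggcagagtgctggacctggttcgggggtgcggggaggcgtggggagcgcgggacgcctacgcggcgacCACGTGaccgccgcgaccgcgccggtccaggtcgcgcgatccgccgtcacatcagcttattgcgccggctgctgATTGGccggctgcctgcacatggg
Srebf2: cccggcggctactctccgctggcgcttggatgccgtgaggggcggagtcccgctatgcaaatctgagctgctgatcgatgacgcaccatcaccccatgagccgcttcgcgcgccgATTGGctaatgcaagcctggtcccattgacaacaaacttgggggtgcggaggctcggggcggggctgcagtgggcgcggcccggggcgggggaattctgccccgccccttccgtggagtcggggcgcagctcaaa
Ebp: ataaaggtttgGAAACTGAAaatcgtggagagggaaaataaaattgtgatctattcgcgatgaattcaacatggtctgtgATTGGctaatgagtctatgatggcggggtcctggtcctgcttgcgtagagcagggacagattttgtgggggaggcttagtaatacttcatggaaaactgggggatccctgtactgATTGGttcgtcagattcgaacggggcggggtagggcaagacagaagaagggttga
Fasn: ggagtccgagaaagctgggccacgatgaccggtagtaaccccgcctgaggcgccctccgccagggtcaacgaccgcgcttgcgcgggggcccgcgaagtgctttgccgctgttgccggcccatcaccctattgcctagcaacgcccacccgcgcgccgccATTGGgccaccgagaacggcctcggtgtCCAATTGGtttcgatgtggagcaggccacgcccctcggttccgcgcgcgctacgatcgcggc

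CCAAT was present in all 5 of these promoters, and in Fasn a forward and a reverse match overlapped. Insig1 and Sc5d also held CACGTG, a palindrome that was counted once, and Ebp alone of the 5 held GAAANNGAA. Over the full window of 250 bases before to 50 after the start, 27 measured members had a RefSeq entry, and 20 of these (74.1%) held CCAAT, against 41.1% of 27025 genes. CACGTG was in 7 of the 27 (25.9%), against 8.09% of all genes. TCACNCCAC, one form of the sterol regulatory element, was found in Hmgcs1 alone (3.7%), against 1.44% of all genes, and GAAANNGAA in Ebp alone (3.7%), against 9.76%. These are letter matches in a short window. The genes that rose and those that fell did not separate by CCAAT, which Ebp, Fasn and Srebf1 held as well as Insig1, Sc5d and Srebf2.

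Values are log2 intensities after the authors' normalisation, so 1 unit is a doubling, and levels of different probe sets are not compared. Array medians ran from 6.19 to 6.28. The number of arrays limits the precision of every value. Along the first principal component of all genes (56.0% of the variance), RApIC replicate 2 stood at −4.53, apart from 35.8 and 23.3 for the other RApIC arrays and 35.0 and 37.8 for the pIC arrays. ATRA arrays lay between −24.5 and −22.4 and PBS arrays between −22.9 and −15.1. Counts of called members in comparisons that use RApIC arrays are therefore given with and without that replicate. Correlations, shared signs and non-overlap counts use all RApIC arrays. ATRA replicate 1 stood apart in 10 neutrophil and precursor markers, whose summed linear intensity was 3204 there, against 937 and 917 on the other ATRA arrays. The sums were 842 to 917 on RApIC arrays, 787 to 790 on pIC arrays and 739 to 779 on PBS arrays. Elane, the neutrophil elastase gene, read 10.08 on ATRA replicate 1 and 6.48 on both other ATRA arrays. Without ATRA replicate 1, the members called numbered 9 in pIC against PBS, 0 in RApIC against ATRA, 1 in RApIC against PBS and 0 in ATRA against PBS.

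Markers of the sorted cells and of other cells moved with polyIC. All 10 measured HSC markers (of 12 listed) lay above the array median on every array. Their summed linear intensity was 10147, 15059 and 11513 on RApIC arrays 1 to 3, 10189 to 10475 on pIC arrays, 16152 to 17178 on ATRA arrays and 15990 to 17119 on PBS arrays, and 6 of the 10 fell in pIC against PBS. Of 12 measured T and NK cell markers (of 14 listed), 3 rose in pIC against PBS. Their sum was 12386, 1704 and 9555 on RApIC arrays 1 to 3, 10343 to 10749 on pIC arrays, 1228 to 1621 on ATRA arrays and 1117 to 1617 on PBS arrays. Ccl5 made up most of this sum on pIC arrays (12.94 and 12.79) and on RApIC arrays 1 and 3 (12.86 and 12.40). It read 8.27 on RApIC replicate 2 and 7.51 to 8.36 on ATRA and PBS arrays. All 12 differences in pIC against PBS were positive, with a median of 1.22. The same test called 5 of 10 erythroid markers and 7 of 11 mitotic genes higher in pIC than in PBS. Over all genes, 8.94% rose and 5.75% fell in that comparison. Of 12 macrophage markers 2 rose, of 9 megakaryocyte markers 4 rose and 2 fell, and no B cell or neutrophil marker was called. In bulk samples, fewer cells of a type and less RNA per cell cannot be told apart. The part of these markers in the results that follow was not tested.

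**Figure D1:**
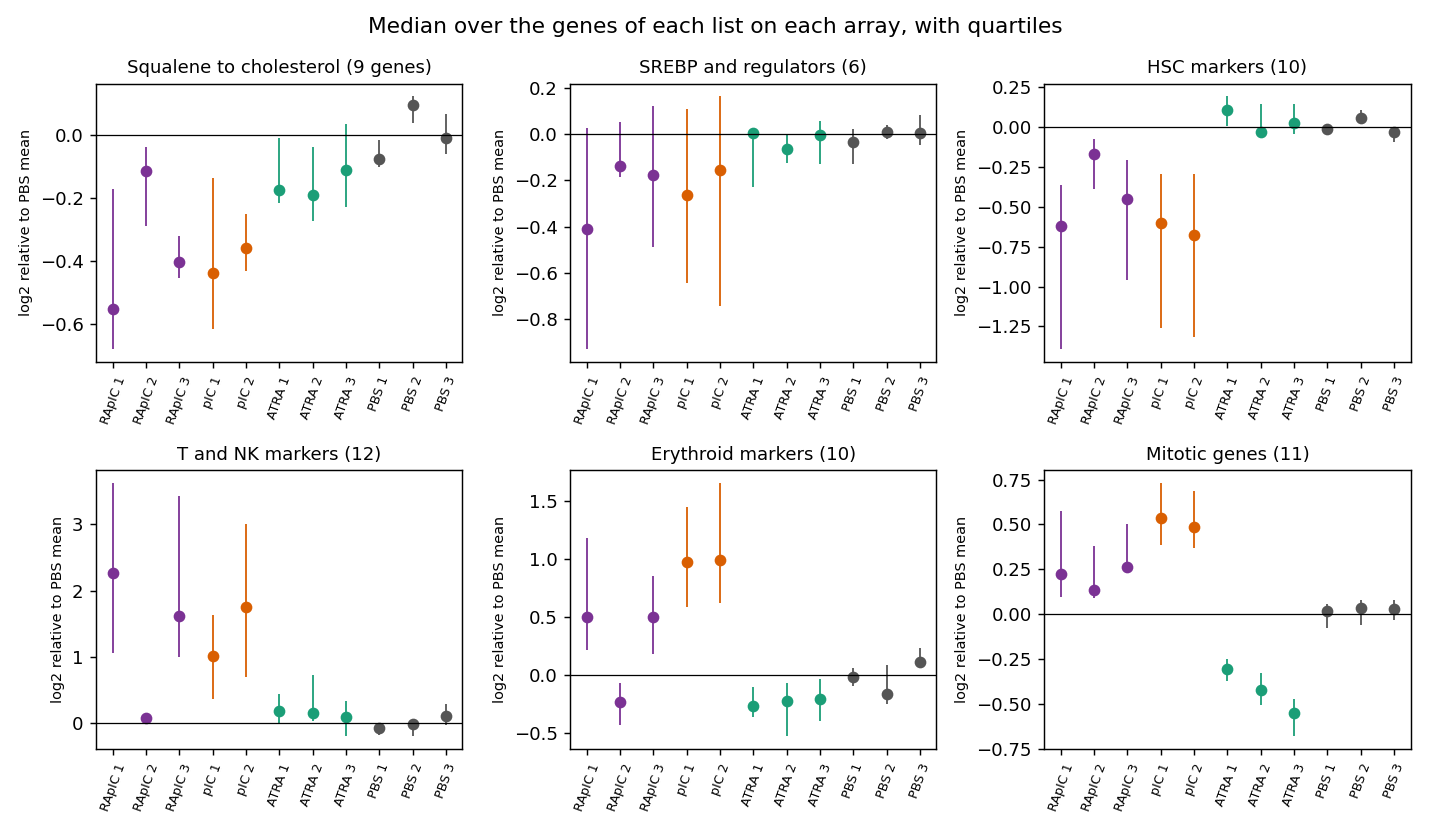
Median log2 level relative to the PBS mean, on each of the 11 arrays, over the genes of 2 member groups and 4 marker lists. Points are medians, lines run between the quartiles over genes, and colours mark the groups RApIC, pIC, ATRA and PBS. RApIC replicate 2 had a median of −0.11 for the squalene to cholesterol genes and of 0.07 for the T and NK markers, against −0.55 and −0.40 and 2.27 and 1.62 on the other RApIC arrays.

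PolyIC alone changed 10 of the 34 measured genes relative to PBS. Of these, 7 genes of sterol synthesis, its control and fatty acid desaturation fell, Insig1, a sterol-dependent brake on SREBP, by the most, and Ebp, Srebf1 and Fasn rose. The comparison asks how polyIC alone bears on these genes, with 2 pIC against 3 PBS arrays. In limma, with Benjamini-Hochberg adjustment over all 22180 genes and calls at an adjusted p under 0.05, 29.4% of the members were called, against 14.7% of all genes. Members that fell made up 20.6%, against 5.75% of all genes, and members that rose 8.82%, against 8.94%. The share that rose was thus near the background. With the dimmest 40% of genes left out, 9 of 32 members fell (28.1%, against 11% of all genes left) and 3 rose (9.38%, against 17.7%). The median member difference was −0.13 and that of all genes 0.0013. The pIC and PBS arrays did not overlap for 22 of the 34 members (64.7%), against 43% of all genes.

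The number of calls rests on few arrays. Leaving out pIC replicate 1 gave 1 call (2.94% of members, against 4.34% of all genes) and leaving out PBS replicate 2 gave 2 (5.88%, against 8.83%), so that the members' share was then below that of all genes. Without pIC replicate 2 there were 2 calls (5.88%, against 2.99%), and without PBS replicate 1 there were 6 (17.6%, against 9.39%). Each other array in turn gave 7 to 14 calls. Leaving out a pIC array leaves a lone sample that is assumed to vary like the other groups. Insig1 was called in all 18 alternatives tried, 11 of which leave out an array.

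**Figure D2:**
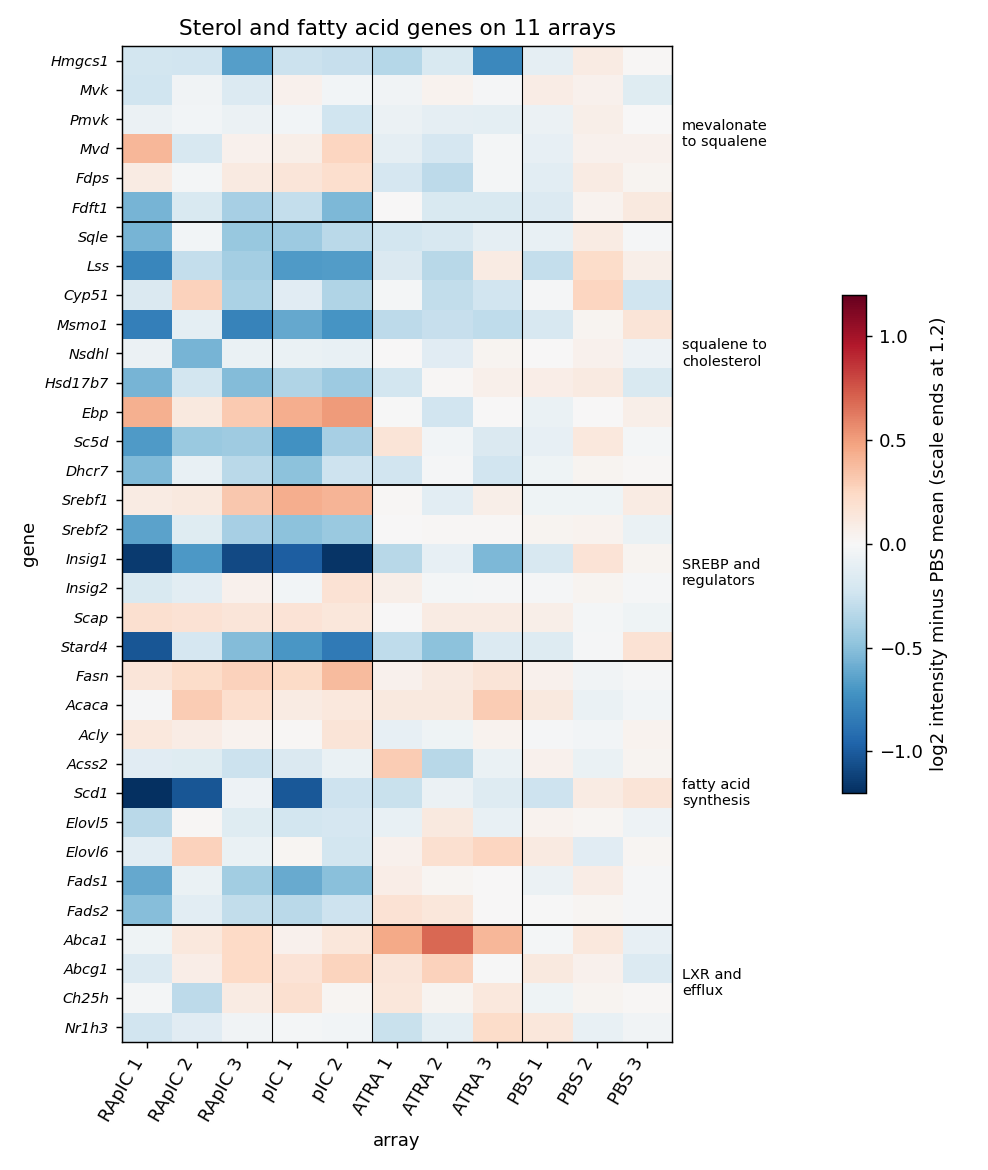
Log2 intensity of the 34 measured genes (rows, grouped by role) on the 11 arrays (columns), as the difference from the PBS mean, with blue for lower and red for higher. The Insig1 row is a darker blue on the RApIC and pIC arrays than on the others, and palest among them on RApIC replicate 2. Ebp is pale red on the RApIC and pIC arrays, faintest on RApIC replicate 2, and Abca1 is red on the ATRA arrays.

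The SREBP system itself held 4 of the calls for pIC against PBS among its 6 genes, where 14.7% of all genes were called. Insig1 read 8.42, 8.87 and 8.48 on RApIC arrays 1 to 3, 8.57 and 8.38 on pIC arrays, 9.23, 9.46 and 9.02 on ATRA arrays, and 9.37, 9.72 and 9.59 on PBS arrays. Every array that had polyIC lay below every array that had not. Insig1 fell by 1.09 ± 0.17 log2 units (SE) in pIC against PBS, which is 2.12-fold lower (limma adjusted p = 0.00345), and this difference ran from −1.18 to −0.99 as single arrays were left out.

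Srebf2 encodes SREBP2, the main driver of cholesterol synthesis. It read 10.12, 10.61 and 10.36 on RApIC arrays, 10.26 and 10.31 on pIC arrays, 10.76, 10.77 and 10.77 on ATRA arrays, and 10.79, 10.80 and 10.68 on PBS arrays. The RApIC and pIC arrays did not overlap with the ATRA and PBS arrays, and RApIC replicate 2 lay nearest to them. Srebf2 fell by 0.47 ± 0.12 in pIC against PBS (limma adjusted p = 0.0269).

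Srebf1, which encodes the SREBP1 factors that act mainly on fatty acid genes, went the opposite way. Its values were 8.50, 8.52 and 8.73 on RApIC arrays, 8.84 and 8.81 on pIC arrays, 8.42, 8.27 and 8.48 on ATRA arrays, and 8.36, 8.35 and 8.51 on PBS arrays. Both pIC arrays were above all others, while RApIC arrays overlapped with PBS arrays. The rise in pIC against PBS was 0.42 ± 0.10 (limma adjusted p = 0.0192). The calls for Srebf1 and Srebf2 were lost without PBS replicate 1, PBS replicate 2 or either pIC array.

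Stard4, a carrier that moves cholesterol between membranes, read 7.92, 8.75 and 8.43 on RApIC arrays, 8.25 and 8.10 on pIC arrays, 8.64, 8.45 and 8.78 on ATRA arrays, and 8.79, 8.93 and 9.12 on PBS arrays. The pIC arrays lay below all ATRA and PBS arrays, and RApIC replicate 2 lay among the ATRA arrays. Stard4 fell by 0.77 ± 0.20 in pIC against PBS (limma adjusted p = 0.0289), a call lost without PBS replicate 2 or 3 or either pIC array. The partners Insig2 and Scap were not called in any comparison. In pIC against PBS their differences were 0.07 ± 0.10 for Insig2 and 0.15 ± 0.08 for Scap, the SREBP escort, with 95% intervals from −0.14 to 0.28 and from −0.02 to 0.32.

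**Figure D3:**
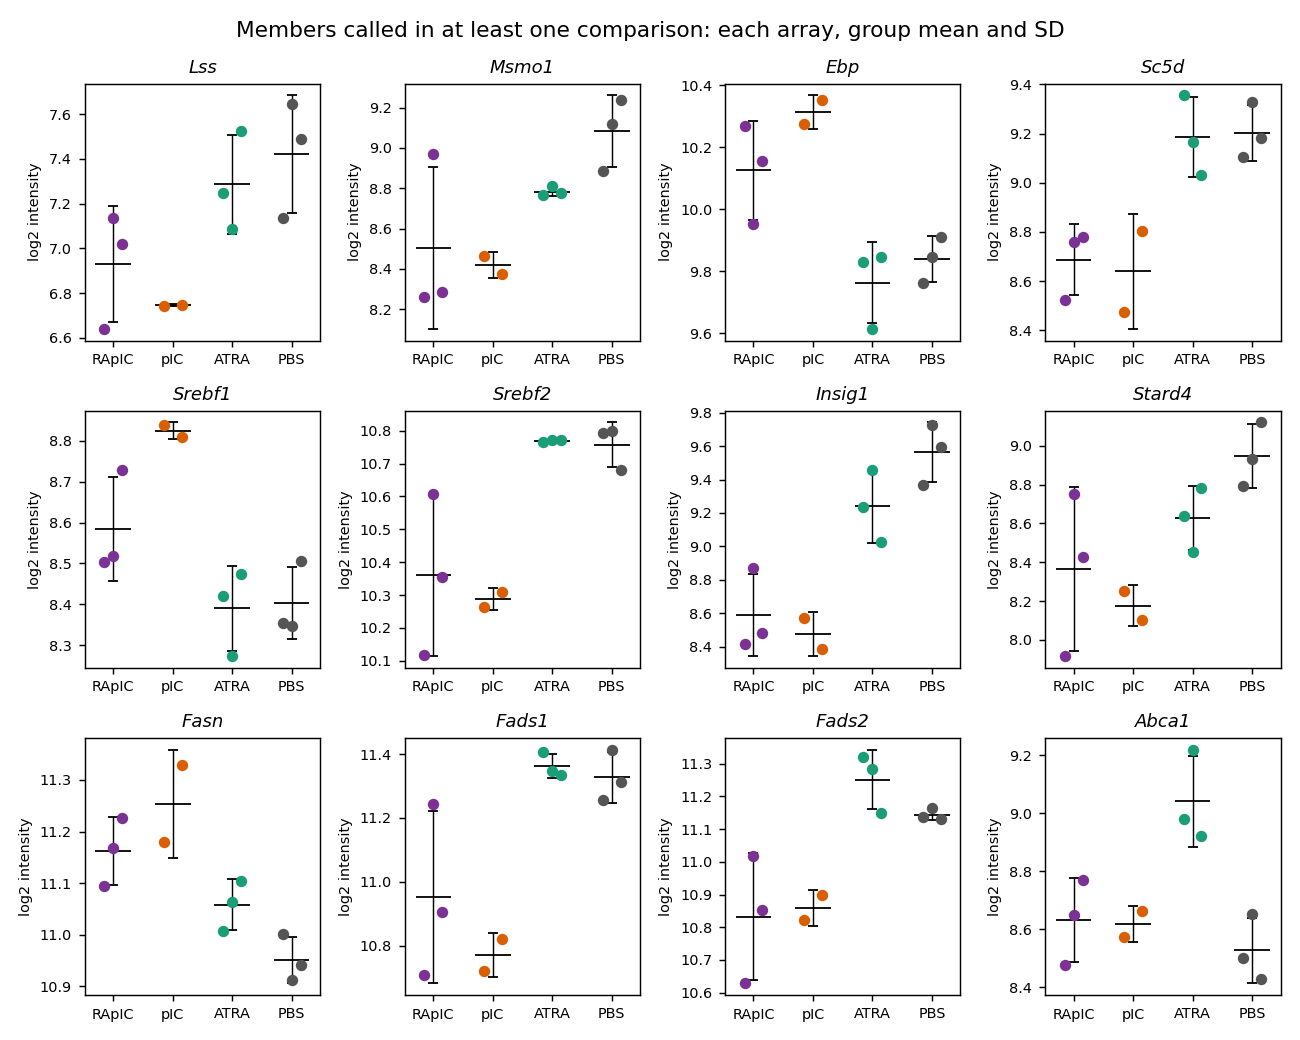
Log2 intensity on each array of the 12 members called in at least 1 comparison, with groups from left to right RApIC, pIC, ATRA and PBS, the group mean as a bar and the SD as a whisker (n = 3, and 2 for pIC). Each panel has its own axis, which does not start at 0. For Insig1 the RApIC and pIC arrays lie between 8.38 and 8.87 and the ATRA and PBS arrays between 9.02 and 9.72.

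Among the 9 enzymes from squalene to cholesterol, 3 fell (33.3%, against 5.75% of all genes) and 1 rose (11.1%, against 8.94%) in pIC against PBS. Of the 9 differences 8 were negative, against 49.7% over all genes. Lss, the cyclase that makes lanosterol, read 6.64, 7.13 and 7.02 on RApIC arrays, 6.74 and 6.75 on pIC arrays, 7.25, 7.09 and 7.52 on ATRA arrays, and 7.13, 7.64 and 7.49 on PBS arrays. The pIC arrays lay below all ATRA and PBS arrays, and Lss fell by 0.68 ± 0.18 (limma adjusted p = 0.0315). Msmo1, an oxidase that removes methyl groups from sterols, read 8.26, 8.97 and 8.28 on RApIC arrays, 8.47 and 8.37 on pIC arrays, 8.77, 8.81 and 8.78 on ATRA arrays, and 8.89, 9.12 and 9.24 on PBS arrays. RApIC replicate 2 was within the PBS range for Msmo1, whereas the other RApIC arrays were lower than all ATRA and PBS arrays. Msmo1 fell by 0.66 ± 0.19 in pIC against PBS (limma adjusted p = 0.0385). Both calls were lost without PBS replicate 2 or 3 or either pIC array, and that of Msmo1 also without any single ATRA array.

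Sc5d, a desaturase late in the pathway, read 8.52, 8.76 and 8.78 on RApIC arrays, 8.47 and 8.80 on pIC arrays, 9.36, 9.17 and 9.03 on ATRA arrays, and 9.10, 9.33 and 9.18 on PBS arrays. As for Insig1, arrays with and without polyIC did not overlap, and RApIC replicate 2 lay between the other RApIC arrays. Sc5d fell by 0.56 ± 0.13 in pIC against PBS (limma adjusted p = 0.0195), a call lost without PBS replicate 2 or pIC replicate 1.

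Ebp, the sterol isomerase that acts just before Sc5d, moved against its neighbours. It read 10.27, 9.95 and 10.15 on RApIC arrays, 10.27 and 10.35 on pIC arrays, 9.83, 9.61 and 9.85 on ATRA arrays, and 9.76, 9.85 and 9.91 on PBS arrays. Every RApIC and pIC array was above every ATRA and PBS array. Ebp rose by 0.47 ± 0.11 in pIC against PBS, 1.39-fold (limma adjusted p = 0.018), and the call was lost without PBS replicate 1 or either pIC array.

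The other 5 genes of this stage were not called. Sqle, the epoxidase that commits squalene to sterols, differed by −0.38 ± 0.14 (limma adjusted p = 0.0897), Hsd17b7, a sterol ketoreductase, by −0.39 ± 0.13 (0.072), and Dhcr7, a reductase of the last steps, by −0.37 ± 0.13 (0.0851). All pIC arrays were below all PBS arrays for these 3 genes. Cyp51, the lanosterol demethylase, differed by −0.25 ± 0.19 and Nsdhl, a sterol dehydrogenase, by −0.08 ± 0.14.

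The early enzymes, from acetyl-CoA to squalene, showed no call in any comparison. In pIC against PBS, 3 of the 6 measured genes were higher and 3 lower, with a median of −0.06. Fdft1, squalene synthase, had the lowest difference, −0.41 ± 0.13 (limma adjusted p = 0.0641), with 8.88 and 8.62 on pIC arrays and 8.99, 9.20 and 9.28 on PBS arrays. Fdps, which makes farnesyl diphosphate, had the highest, 0.18 ± 0.11. The difference was −0.27 ± 0.17 for Hmgcs1, which makes HMG-CoA. It was 0.01 ± 0.10 for mevalonate kinase (Mvk), −0.13 ± 0.08 for phosphomevalonate kinase (Pmvk) and 0.17 ± 0.15 for Mvd, which makes isopentenyl diphosphate.

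Of the 9 measured fatty acid genes, 1 rose and 1 fell in pIC against PBS, 11.1% each, against 8.94% and 5.75% of all genes. Fasn, fatty acid synthase, read 11.09, 11.17 and 11.23 on RApIC arrays, 11.18 and 11.33 on pIC arrays, 11.01, 11.06 and 11.10 on ATRA arrays, and 11.001, 10.91 and 10.94 on PBS arrays. All pIC and RApIC arrays were above the PBS arrays, and the rise in pIC was 0.30 ± 0.08, 1.23-fold (limma adjusted p = 0.0324). The Fasn call was lost without any single PBS or pIC array, under cyclic loess scaling, and in a fit of pIC and PBS arrays only. Over all 18 alternatives its adjusted p reached 0.24.

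Fads1, a desaturase of polyunsaturated fatty acids, read 10.71, 11.24 and 10.91 on RApIC arrays, 10.72 and 10.82 on pIC arrays, 11.41, 11.35 and 11.33 on ATRA arrays, and 11.26, 11.41 and 11.31 on PBS arrays. The pIC arrays were below all ATRA and PBS arrays, and RApIC replicate 2 was close to the PBS arrays. Fads1 fell by 0.56 ± 0.13 (limma adjusted p = 0.0195), a call lost without PBS replicate 2 or either pIC array.

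The partner desaturase Fads2 differed by −0.28 ± 0.11 in pIC against PBS and was not called (limma adjusted p = 0.115). Differences were 0.11 ± 0.11 for acetyl-CoA carboxylase (Acaca) and 0.08 ± 0.08 for ATP citrate lyase (Acly), which supplies cytosolic acetyl-CoA. They were −0.13 ± 0.15 for Acss2, an acetyl-CoA synthetase, −0.21 ± 0.11 for Elovl5 and −0.10 ± 0.14 for Elovl6, both fatty acid elongases. None was called. Scd1, which makes monounsaturated fatty acids, was among the dimmest 40% of genes and read 4.76 and 5.53 on pIC arrays, against 5.53, 5.88 and 5.93 on PBS arrays. Its difference of −0.63 had a 95% interval from −1.52 to 0.26.

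None of the 4 measured genes of the LXR branch was called in pIC against PBS. Ch25h, also among the dimmest 40% of genes, read 5.62 and 5.45 on pIC arrays, against 5.38, 5.46 and 5.44 on PBS arrays. Its difference of 0.11 ± 0.12 (limma adjusted p = 0.625) had a 95% interval from −0.15 to 0.36. The exporters Abca1 and Abcg1 differed by 0.09 ± 0.12 and 0.21 ± 0.13, and the receptor gene Nr1h3 by −0.03 ± 0.13.

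After ATRA and polyIC, 5 members fell relative to ATRA alone. They were Insig1, Sc5d and Srebf2, which had also fallen with polyIC alone, and Fads2 and Abca1. No member rose. This comparison asks how the genes respond to polyIC in ATRA-treated mice, and it shares no array with pIC against PBS. The 5 members are 14.7% of those measured, against 3.71% of all genes that fell. For rises the shares were 0% of members and 3.5% of all genes, and 7.21% of all genes were called either way. Insig1 fell by 0.65 ± 0.15 (limma adjusted p = 0.0279), Sc5d by 0.50 ± 0.12 (0.033) and Srebf2 by 0.41 ± 0.11 (0.0472). In each of these, all RApIC arrays were below all ATRA arrays. Srebf2 was called in 6 of 18 alternatives, and its call was lost without any single array other than RApIC replicate 2. Abca1 was called in 8 of the 18, Sc5d in 12, and Insig1 and Fads2 in 13 each. The arrays of these groups did not overlap for 12 members (35.3%), against 24.1% of all genes.

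Fads2 read 10.63, 11.02 and 10.85 on RApIC arrays, against 11.32, 11.28 and 11.15 on ATRA arrays, with 10.82 and 10.90 on pIC arrays and 11.14, 11.16 and 11.13 on PBS arrays. The RApIC arrays did not overlap with the ATRA arrays, and Fads2 fell by 0.42 ± 0.10 (limma adjusted p = 0.0299). Abca1, the exporter that loads cholesterol onto lipoproteins, read 8.48, 8.65 and 8.77 on RApIC arrays, 8.58 and 8.66 on pIC arrays, 8.98, 9.22 and 8.92 on ATRA arrays, and 8.50, 8.65 and 8.43 on PBS arrays. The ATRA arrays stood above all others, which overlapped among themselves. Abca1 fell by 0.41 ± 0.11 in RApIC against ATRA (limma adjusted p = 0.0426). Ebp at 0.36 ± 0.10 (adjusted p = 0.0519) and Fads1 at −0.41 ± 0.12 (0.0636) were not called.

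Without RApIC replicate 2, 10 members were called in RApIC against ATRA. Ebp rose, and Abca1, Fads1, Fads2, Hsd17b7, Insig1, Msmo1, Sc5d, Sqle and Srebf2 fell, against backgrounds of 6.98% rising and 7.51% falling. The count was 0 without ATRA replicate 1, ATRA replicate 2 or RApIC replicate 1, where 2.68%, 2.81% and 2.61% of all genes were called. It was 1 without RApIC replicate 3 (2.94% of members, against 2.15% of all genes), where the call was Scd1. It was 3 without ATRA replicate 3, PBS replicate 1 or either pIC array, 2 without PBS replicate 3, and 4 without PBS replicate 2. A fit of the RApIC and ATRA arrays only called 0 members and 1.38% of all genes, with Insig1 at an adjusted p of 0.091. HSC markers moved here too, with 4 of 10 lower, and 10 of 11 mitotic genes were higher. Of 12 T and NK markers 1 rose, of 10 erythroid markers 2 rose and of 12 macrophage markers 2 rose. Over all genes, 3.5% rose and 3.71% fell. All 12 T and NK differences were positive, with a median of 1.15. In limma 7 of them had an unadjusted p under 0.05, against 21.6% of all genes. Of 9 megakaryocyte markers 4 rose and 1 fell, and of 10 neutrophil markers 1 fell. Their part was not tested.

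**Figure D4:**
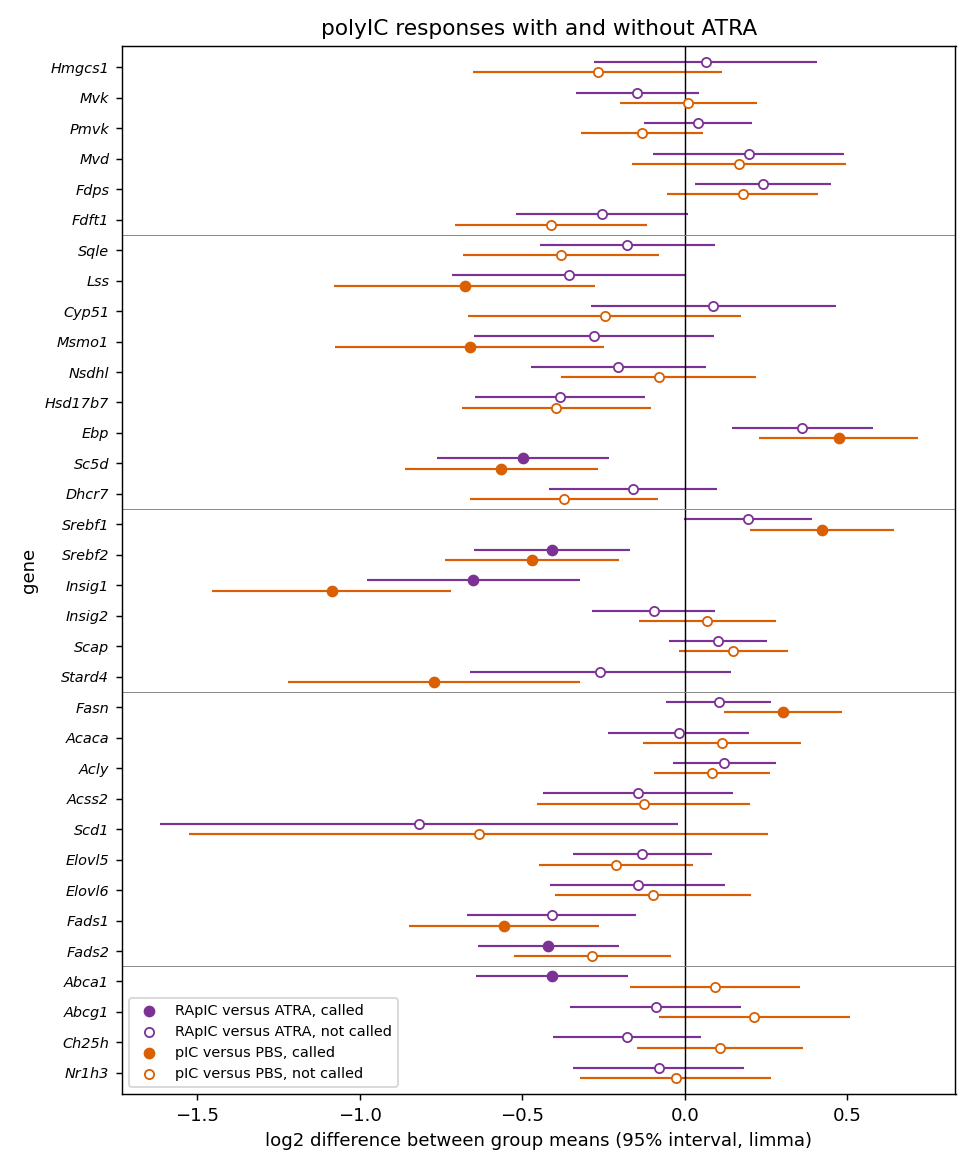
Log2 difference with its 95% interval for each of the 34 measured genes, in RApIC against ATRA (purple, upper mark of each row) and in pIC against PBS (orange, lower mark). Filled points were called. Insig1, Sc5d and Srebf2 are filled and left of 0 in both, while Abca1 is filled for RApIC against ATRA at −0.41 and lies at 0.09 for pIC against PBS.

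Side by side, the responses to polyIC after ATRA and without it had the same sign for 25 of 34 members (73.5%), against 68.8% of all genes. All 10 members called in pIC against PBS had the same sign in RApIC against ATRA, as did 95.9% of the 3260 genes called there, and 3 of the 10 (30%) were called in both, against 36.1% of those genes. Across members the Pearson correlation of the differences was 0.779, and across all genes 0.811. These are descriptions over genes, which are not independent replicates. The test of the difference between the responses, an interaction term in limma, called no member and no gene at all. At an unadjusted p under 0.05 it picked 1 member, Abca1 at −0.50 ± 0.16 (adjusted p = 0.755), and 6.27% of all genes.

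RApIC against PBS, which shares arrays with both comparisons above, asks what both agents together changed. Insig1 fell by 0.97 ± 0.15, 1.96-fold (limma adjusted p = 0.00873), and Sc5d by 0.52 ± 0.12 (0.0465), and no other member was called. These are 5.88% of members, against 1.51% of all genes that fell and 3.11% called either way. No member rose, against 1.61% of all genes. Stard4 at −0.58 ± 0.18 (adjusted p = 0.108), Msmo1 at −0.58 ± 0.17 (0.0885) and Srebf2 at −0.40 ± 0.11 (0.0748) missed the threshold. RApIC and PBS arrays did not overlap for 16 members (47.1%), against 20.3% of all genes. Without RApIC replicate 2, 12 members were called, with Ebp higher and 11 lower, against 5.48% of all genes rising and 5.65% falling. Sc5d was lost when any single array other than RApIC replicate 2 was left out, which left Insig1 as a called member each time, with Scd1 beside it when RApIC replicate 3 was left out. A fit of the RApIC and PBS arrays only called 0 members and 0.316% of all genes, with Insig1 at an adjusted p of 0.0619. Among the markers, 2 of 10 HSC genes fell, and 1 of 12 T and NK, 2 of 12 macrophage and 1 of 11 mitotic genes rose. All 12 T and NK differences were positive, with a median of 1.39. In limma 10 of them had an unadjusted p under 0.05, against 18.7% of all genes. Of 9 megakaryocyte markers 2 rose and 2 fell. Their part was not tested.

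ATRA alone changed no member detectably. In ATRA against PBS limma called 0 members, against 1 of 22180 genes (0.00451%), and 2 members (5.88%) had an unadjusted p under 0.05, against 6.8% of all genes. Abca1 read 8.98, 9.22 and 8.92 on ATRA arrays, against 8.50, 8.65 and 8.43 on PBS arrays, without overlap. Its difference was 0.51 ± 0.11 (adjusted p = 0.2). Hmgcs1 read 7.68, 7.83 and 7.25 on ATRA arrays, against 7.91, 8.12 and 8.03 on PBS arrays, a difference of −0.43 ± 0.16 (adjusted p = 0.638).

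All 9 squalene to cholesterol genes and all 6 measured mevalonate genes had a negative difference, against 50.6% of all genes. Their medians were −0.14 and −0.12 log2 units, against −0.0017 over all genes. Genes read on the same arrays are not independent replicates. Insig1 was at −0.32 ± 0.15 and Stard4 at −0.32 ± 0.18. ATRA and PBS arrays did not overlap for 7 of 34 members (20.6%), against 12.7% of all genes. Mitotic genes were lower in all 11 cases, with none called and 10 at an unadjusted p under 0.05, and their part was not tested. Megakaryocyte markers summed to 4491 to 5082 on ATRA arrays, against 6916 to 7702 on PBS arrays, without overlap, with 5 of 9 lower at an unadjusted p under 0.05 and none called. The T and NK marker sums of these groups overlapped.

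Given before polyIC, ATRA made no detectable difference to the members. In RApIC against pIC limma called 0 of 34 members and 0 of 22180 genes (0%), with and without RApIC replicate 2. At an unadjusted p under 0.05 there was 1 member, Srebf1 at −0.24 ± 0.10 (adjusted p = 0.45), and 10.1% of all genes. Intervals still allowed sizeable differences. The 95% interval was −0.25 to 0.48 for Insig1, −0.26 to 0.64 for Stard4 and −0.25 to 0.27 for Abca1. The arrays of these groups did not overlap for 5 members (14.7%), against 27.2% of all genes. All 10 erythroid and all 11 mitotic differences were negative, against 55.3% of all genes. In limma 6 and 4 of them had an unadjusted p under 0.05. HSC markers were higher in 8 of 10 cases, with 2 at an unadjusted p under 0.05. No marker was called, and the part of the markers was not tested.

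Genes of the same pathways outside the list moved in both directions. Of 34 measured among 40 other sterol and fatty acid genes, 6 rose (17.6%, against 8.94% of all genes) and 3 fell (8.82%, against 5.75%) in pIC against PBS. Nus1, a subunit of the enzyme that makes dolichol from isoprenoids, rose by 0.67 ± 0.10 (limma adjusted p = 0.00331), Vldlr, a lipoprotein receptor, by 0.91 ± 0.14 (0.00343), and Acsl5, an acyl-CoA synthetase, by 0.55 ± 0.11 (0.0103). Mbtps2, one of the proteases that release active SREBP, fell by 0.38 ± 0.09 (0.0183). The calls for Nus1 and Vldlr held in all 18 alternatives. Acsl5 was lost without either pIC array, and Mbtps2 also without PBS replicate 1. The count was 2 without either pIC array and 4 without PBS replicate 1.

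In RApIC against ATRA, 3 of these 34 genes rose and 3 fell, 8.82% each, against 3.5% and 3.71% of all genes. Lipa, the lysosomal lipase that frees cholesterol from its esters, fell by 0.48 ± 0.09 (limma adjusted p = 0.0107) and Acsl5 rose by 0.46 ± 0.10 (0.0225). Lipa read 8.81, 8.99 and 9.03 on RApIC arrays, 8.72 and 8.84 on pIC arrays, 9.45, 9.36 and 9.46 on ATRA arrays, and 8.87, 9.04 and 9.04 on PBS arrays. The ATRA arrays stood above all others, and RApIC and PBS arrays overlapped. In ATRA against PBS Lipa differed by 0.44 ± 0.09 and was not called (limma adjusted p = 0.182). Lpin1, a phosphatidate phosphatase, fell by 0.44 ± 0.10 (0.0277) and Me1, a source of NADPH, by 0.46 ± 0.12 (0.0455). A fit of these groups only called none of the 34. The Lipa call held whichever array was left out. Acsl5 was lost without any ATRA array or RApIC replicate 1 or 3, and Lpin1 without replicate 1 or 3 of either group, while Me1 was called in 4 of 17 alternatives. The count was 9 without RApIC replicate 2, 1 without ATRA replicate 1 or RApIC replicate 1, 2 without any other ATRA or RApIC array, and 3 without any PBS or pIC array.

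Vldlr was higher on every array of treated mice than on any PBS array. It read 7.24, 7.53 and 7.19 on RApIC arrays, 7.44 and 7.19 on pIC arrays, 7.19, 7.40 and 7.35 on ATRA arrays, and 6.28, 6.32 and 6.62 on PBS arrays. It rose by 0.91 ± 0.12 in RApIC against PBS (limma adjusted p = 0.00504), where it was the one gene of this list called (2.94%, against 3.11% of all genes). That call was lost in a fit of these groups only (adjusted p = 0.0561). In ATRA against PBS it differed by as much, 0.91 ± 0.12, and missed the threshold (limma adjusted p = 0.0534). It was called there in 4 of 18 alternatives, among them the fit without RApIC replicate 2. No gene of the list was called there in the main fit.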

How the data were processed

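Total RNA of sorted HSCs was labelled with biotin and hybridised to Affymetrix arrays, per the labels' protocols. The deposited values are log2 intensities of 41345 probe sets. The tools oligo 1.36.1, RMA (background correction, quantile normalisation and probe set summary) and limma 3.28.20 are named, without their roles, per the submitters' processing notes. Probe sets were named from the platform's table, which pairs 23521 with 1 gene symbol and 1814 with several, and does not list 16010. The brightest probe set was kept for each of 22180 genes (1082 had more than 1). Scap and Ch25h had 2 probe sets each.

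With limma 3.58.1 in R 4.3.3, a model of 4 group means was applied to all genes and 11 arrays (7 residual degrees of freedom), with two-sided tests, Benjamini-Hochberg adjustment within each of 6 contrasts and calls under 0.05. The code was tested on simulated data. The members and the gene, marker and motif lists were chosen with earlier results of these data known. All members are named, and of the other lists up to 4 genes of smallest adjusted p per comparison. Same-numbered arrays did not deviate together (r from −0.109 to 0.0976 over 15 pairs), so replicate numbers were not used as pairs. Each array was left out in turn. The other alternatives were weighted arrays, removal of the dimmest 40% of genes, a block for the replicate number, cyclic loess, averaged probe sets per gene, a trended robust prior in limma and fits without the groups not compared. Backgrounds with the dimmest genes left out, and counts without RApIC replicate 2 beside the results, were added after seeing the data. Promoters are from RefSeq (29 of 37 members matched). Tables and figures were made in Python 3.11.15.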

Additional observations from a re-analysis of the deposited data

Results flagged for a closer look

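Listed here are members whose arrays all lay above the reference group's mean in 1 comparison and all below it in the paired comparison. The interaction term tests the difference. Bracketed ranges are single arrays minus that mean, so the arrays of the 2 groups can still overlap. Among the comparisons given, only Abca1 in RApIC against ATRA and Fasn in ATRA against PBS had no overlap. None of the members passed the interaction test in limma (adjusted p from 0.755 to 0.836).

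Abca1 differed between polyIC responses, with −0.41 in RApIC against ATRA (arrays −0.56 to −0.27) and 0.09 in pIC against PBS (0.05 to 0.14), an interaction of −0.50. Pmvk was at 0.04 in RApIC against ATRA (0.03 to 0.07) and −0.13 in pIC against PBS (−0.24 to −0.03), an interaction of 0.17. Its effect of ATRA was 0.08 in RApIC against pIC (0.06 to 0.10) and −0.10 in ATRA against PBS (−0.12 to −0.07), the same interaction of 0.17 seen from the other side. For Fasn, the effect of ATRA was −0.09 in RApIC against pIC (−0.16 to −0.03) and 0.11 in ATRA against PBS (0.06 to 0.15), an interaction of −0.20. Ch25h had −0.19 in RApIC against pIC (−0.43 to −0.01) and 0.10 in ATRA against PBS (0.03 to 0.13), an interaction of −0.29.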

How the results depend on the processing

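No member's called difference changed sign under any alternative tried. The counts of called members did change. For RApIC against ATRA (5 members), array weights gave 12 (35.3%, against 20.7% of all genes) and leaving out the dimmest genes 8 of 32 (25%, against 16%), while a fit of only those groups gave 0 (against 1.38%). For RApIC against PBS (2 members), array weights gave 15 (44.1%, against 14.1%) and leaving out the dimmest genes 4 of 32 (12.5%, against 9.11%). A fit of only those groups gave 0 (against 0.316%). The array weights were 0.65, 0.37 and 4.19 on RApIC arrays 1 to 3, and 0.59 to 1.51 on the arrays of other groups. The weighted RApIC mean thus leans mostly on replicate 3. With the replicate number as a block, the count was 1 for RApIC against PBS, 4 for RApIC against ATRA and 10 for pIC against PBS, and it stayed at 0 elsewhere. Among the genes named in the text, the calls it ended were those of Sc5d in RApIC against PBS, of Srebf2, Lpin1 and Me1 in RApIC against ATRA, and of Stard4 and Ppard in pIC against PBS, where it added Dhcr7. As single arrays were left out, the counts ran from 1 to 14 for pIC against PBS, from 0 to 10 for RApIC against ATRA and from 1 to 12 for RApIC against PBS, and stayed at 0 for the other contrasts. The cause of these changes was not tested, beyond the smaller numbers of arrays or genes in the fits. Cyclic loess scaling moved the median of all genes by under 0.1 log2 units in each contrast. Signal limits Scd1 and Ch25h, which were among the dimmest 40% of genes.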

Other observations

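Genes of fatty acid oxidation, the opposite process, were read for comparison, with 15 of 16 measured. In pIC against PBS 2 rose (13.3%, against 8.94% of all genes) and none fell (against 5.75%), a share near that of all genes. In RApIC against ATRA 2 rose (13.3%, against 3.5%) and none fell (against 3.71%). Acadl, a long-chain acyl-CoA dehydrogenase, read 11.16, 10.34 and 10.98 on RApIC arrays, 11.28 and 11.31 on pIC arrays, 9.83, 9.80 and 9.87 on ATRA arrays, and 9.87, 10.03 and 10.09 on PBS arrays. All arrays of polyIC-treated mice were above the rest, and RApIC replicate 2 was the lowest of them. Acadl rose by 1.30 ± 0.19 log2 units in pIC against PBS (limma adjusted p = 0.00285), a call kept in all 18 alternatives, and by 0.99 ± 0.17 in RApIC against ATRA (0.00854), a call lost only in a fit of those groups alone (adjusted p = 0.0654). Against PBS it rose by 0.83 ± 0.17 in RApIC (0.0285), a call lost in such a fit and without any PBS array, ATRA replicate 3, or RApIC replicate 1 or 3. Ppard, a nuclear receptor that acts on oxidation genes, rose by 0.42 ± 0.12 in pIC against PBS (0.0411), a call lost without any PBS or pIC array or ATRA replicate 1. In RApIC against ATRA Ppard went the other way, by −0.26 ± 0.11, and was not called (limma adjusted p = 0.193). It read 8.06, 8.14 and 8.35 on RApIC arrays and 8.14, 8.18 and 8.11 on PBS arrays, with overlap. Its interaction term was −0.68 ± 0.16, also not called (limma adjusted p = 0.742). Etfb, an electron carrier subunit, rose by 0.35 ± 0.07 in RApIC against ATRA (0.0168), a call lost in a fit of those groups alone and without ATRA replicate 1 or 3 or RApIC replicate 1 or 3. The median over the 15 genes was 0.12 in pIC against PBS and 0.12 in RApIC against ATRA. T and NK, erythroid, megakaryocyte, macrophage, mitotic and HSC markers moved in the same comparisons, and their part in these values was not tested.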
